A study of Mus musculus with 13 samples.

Results

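Bone marrow-derived macrophages (BMDMs) of control mice were compared after 24 h and after 3 h of lipopolysaccharide (LPS), a component of the bacterial outer membrane, to describe how the early transcriptional response of these cells differs from the late one. The comparison used 6 of the 13 RNA-seq libraries of the series, chosen by their labels: control 3 h replicates 1, 2 and 3 and control 24 h replicates 2, 3 and 4. Control 24 h replicate 1 has a label that fits too and was left out for its low depth, 34467 counts in all. Control mice were Acly fl/fl, that is, they carried loxP sites in both copies of *Acly*, which encodes the cytosolic enzyme ATP citrate lyase, and no Cre. The other genotype in the series, AclyM-KO, carried the same floxed allele together with *Lyz2*-Cre, which is active in myeloid cells, and its 6 libraries (3 at each time) served here as a second set of cultures with the same time points. All mice were on a C57Bl/6J background, all BMDMs were grown from bone marrow in medium conditioned by L929 fibroblasts, and the age of the mice behind the RNA-seq is not given in the sources used here. Unstimulated cultures were not analysed here. "Higher at 24 h" therefore means higher than at 3 h, not higher than before LPS, and hours of LPS and hours in culture cannot be told apart. No source used here says that the replicates came from separate animals, so p-values measure the spread between these libraries, which may be technical.

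LPS is bound by CD14 and by the complex of Toll-like receptor 4 with MD-2 on the macrophage surface. The adaptor MyD88 then leads to NF-kB and the MAP kinases, which turn on transcription factors, cytokines, chemokines and also their own inhibitors within hours. The adaptors TRAM and TRIF lead to interferon-beta, which acts back on the cells through its receptor to induce antiviral genes. Over the following hours macrophages are known to change their metabolism, to make acute-phase and antioxidant proteins, and to become less responsive to further LPS.

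The 6 control libraries held 21274102 to 59577343 counts over all transcripts, with control 24 h replicate 4 the deepest. The library left out, labelled control 24 h replicate 1, held 34467 counts, and the share of its counts in genes lower at 24 h, given at the end, was near that of the 3 h libraries. *Acly* was counted at 179, 182 and 182 CPM at 3 h and 191, 186 and 183 CPM at 24 h and did not differ by the test (log2 fold change 0.041 ± 0.058 SE, adjusted p = 0.529). In the AclyM-KO libraries it stood at 49.2 to 78.8 CPM, so the genotype labels and the targeted gene pointed the same way in every library of the fit. CPM, the usual depth-scaled count, were computed with TMM library sizes from 1 transcript row per gene symbol, and since they are not divided by transcript length they compare a gene with itself and not with other genes. The labelled cell type was checked by its markers. The 12 macrophage markers summed to 20908 to 21025 CPM at 3 h and 12198 to 12691 CPM at 24 h. The 10 neutrophil markers summed to 34.5 to 35.9 CPM at 3 h and 7.42 to 11.3 CPM at 24 h, with *Ly6g* and *Retnlg* at 0 in all 6 libraries, and the 7 dendritic cell markers to 3.14 to 4.78 and 0.882 to 1.18 CPM. Sums of the 7 B cell markers (1 at 0), the 6 T and NK cell markers with a symbol (*Klrb1c* at 0), the 6 mast cell and basophil markers (4 at 0) and the 6 erythroid markers (4 at 0) stayed at or under 1.53 CPM in every library. The 7 stromal markers summed to 0 to 0.594 CPM at 3 h and 1.596 to 2.32 CPM at 24 h. What part these other cells had in the results was not tested. In bulk samples fewer cells of a type and less RNA per cell cannot be told apart.

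Of the 24445 gene symbols in the table, 11904 passed the filter on low counts and were tested. At 24 h 2452 genes were higher than at 3 h, which is 20.6% of those tested, and 2348 were lower, which is 19.7%, at an adjusted p under 0.05 and a log2 fold change past 0.75. Together 4800 genes (40.3%) were called. The adjusted p alone was under 0.05 for 8900 genes (74.8%), and the 3 libraries of one time lay wholly above or below those of the other for 9228 genes (77.5%), among them 4747 of the 4800. A call for a single gene is therefore common in this comparison. Past a log2 fold change of 2, which is 4-fold, there were 484 genes higher at 24 h (4.07%) and 694 genes lower (5.83%). The median over all genes tested was 0.032 on the log2 scale, with quartiles of -0.56 and 0.63. Where a gene is followed by 2 values in brackets below, they are its log2 fold change of 24 h over 3 h and its SE. Every SE given here is the size of the log2 fold change divided by the square root of the test's F statistic. It can be too small for genes with counts near 0 at one time. For *Wnk2* it is 0.27 in control and 0.21 in AclyM-KO, but 0.87 for the difference between the genotypes. The balance of directions depended on the scaling: with total counts in place of TMM factors, 3623 genes were higher and 1704 lower, the median of all genes moved up by 0.28, and 68.0% of the calls were increases against 51.1% with TMM. Of the 330 called genes that are named here or belong to a gene list, 36 lost their call with total counts, all of them lower at 24 h. The share of a list that was called is to be read against the 20.6% higher and 19.7% lower over all genes.

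**Figure D1:**
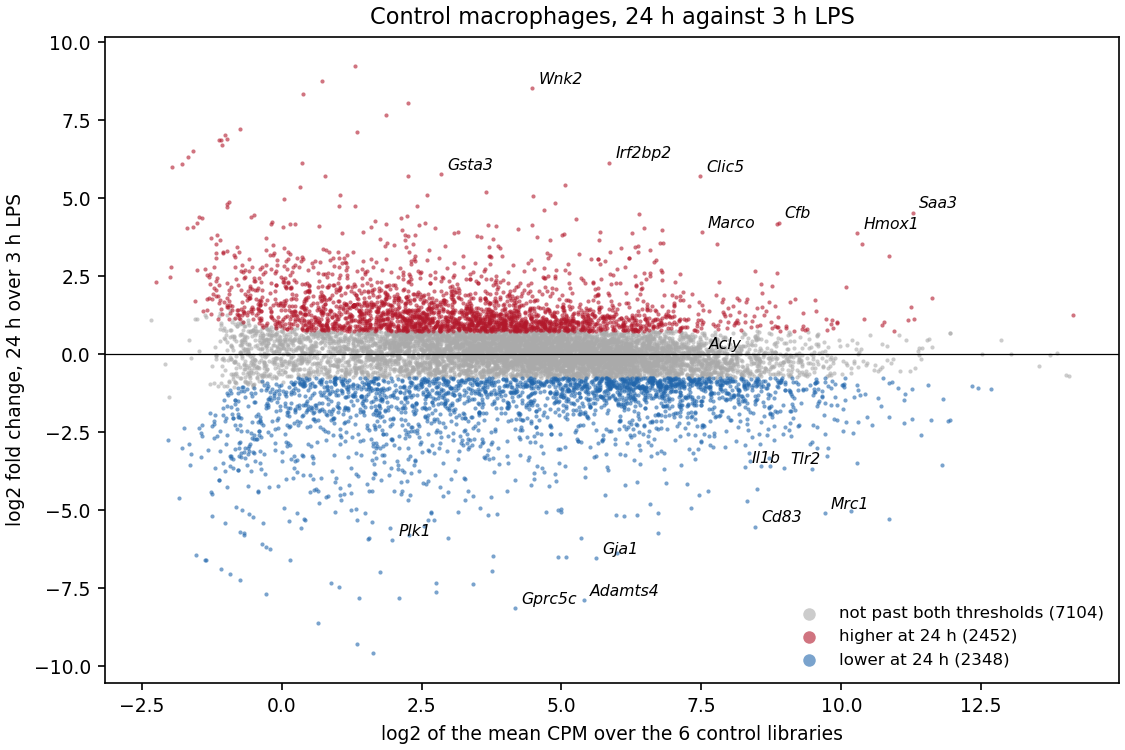
Log2 fold change of 24 h over 3 h LPS (vertical axis) against the log2 of the mean CPM over the 6 control libraries (horizontal axis) for 11904 genes. Red points are the 2452 genes higher at 24 h, blue points the 2348 genes lower and grey points the rest. *Wnk2* (8.53) and *Gprc5c* (-8.13) stand at opposite ends among the genes named, and *Acly* lies near 0.

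The 15 genes of largest increase among those with separate libraries and a mean of at least 10 CPM at the higher time had diverse roles. Separation of the libraries was a condition of this set and of the set of largest decreases, so it adds no support for their genes. *Wnk2*, a kinase of the family that regulates chloride transport, was counted at 0, 0.239 and 0.0854 CPM at 3 h and 43.7, 46.7 and 42.6 CPM at 24 h. Its 3 libraries at 3 h were at or near 0 and its 3 libraries at 24 h were all above 40 CPM (log2 fold change 8.53 ± 0.27 SE, adjusted p = 1.29e-19). *Irf2bp2*, a transcriptional co-repressor, was counted at 1.61, 1.12 and 2.14 CPM at 3 h and 112, 117 and 114 CPM at 24 h, a 70.7-fold increase without overlap (log2 fold change 6.14 ± 0.13 SE, adjusted p = 3.65e-27). *Clic5*, of the chloride intracellular channel family, went from 6.62, 6.06 and 7.26 to 339, 350.2 and 362 CPM, which is 52.8-fold (log2 fold change 5.72 ± 0.092 SE, adjusted p = 8.24e-29). Several surface receptors of myeloid cells were in this set. *Siglece*, an inhibitory sialic acid receptor, was at 2.46, 1.92 and 1.54 CPM at 3 h and 55.7, 58.9 and 56.9 CPM at 24 h (log2 fold change 4.85 ± 0.12 SE, adjusted p = 2.98e-25). *Fpr1*, the receptor for formylated bacterial peptides, was at 7.64, 5.59 and 7.94 CPM at 3 h and 152, 158 and 168 CPM at 24 h (log2 fold change 4.503 ± 0.13 SE, adjusted p = 1.16e-16). *Cd300e*, an activating myeloid receptor, was at 0.849, 0.718 and 0.427 CPM at 3 h and 26.8, 20.5 and 26.6 CPM at 24 h (log2 fold change 5.201 ± 0.21 SE, adjusted p = 6.10e-20). These receptors were low in every library at 3 h and, by the rule of the set, higher in every library at 24 h. *Il12rb1*, a subunit of the IL-12 and IL-23 receptors, *Ly75*, an endocytic receptor, and *Antxr1*, which binds collagen and anthrax toxin, had log2 fold changes of 4.33 ± 0.11, 4.61 ± 0.14 and 5.06 ± 0.18 (SE). *Ly6a* (5.42 ± 0.25) and the amino acid transporter *Slc6a19* (5.097 ± 0.27) completed the set with *Gsta3*, *Slpi*, *Saa3* and *Cfb*, which are described with their groups.

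The 15 genes of largest decrease by the same rule included adhesion molecules, matrix proteases and signalling enzymes of the early response. *Adamts4*, a protease that cleaves aggrecan and versican, was counted at 88.6, 75.6 and 87.3 CPM at 3 h and 0.208, 0.725 and 0.259 CPM at 24 h (log2 fold change -7.89 ± 0.16 SE, adjusted p = 4.44e-27). It shares exon sequence with another gene on the opposite strand, and the strand setting of the counting is not given in the sources used here. *Gprc5c*, an orphan receptor, was at 36.3, 33.8 and 38.01 CPM at 3 h and 0.208, 0.29002 and 0.0259 CPM at 24 h (log2 fold change -8.13 ± 0.23 SE, adjusted p = 5.27e-23). *Sphk1*, which makes the lipid mediator sphingosine-1-phosphate, was at 14.2, 13.3 and 12.8 CPM at 3 h and 0.139, 0 and 0.0778 CPM at 24 h (log2 fold change -7.34 ± 0.30 SE, adjusted p = 7.19e-20). All 3 genes were above 10 CPM in each library at 3 h and under 1 CPM in each at 24 h. The selectins *Sele* and *Selp*, best known as adhesion molecules of endothelium, had log2 fold changes of -7.62 ± 0.30 and -7.37 ± 0.26 (SE), and *Selp* shares an exon with *Gm16548*. *Gja1*, the gap junction protein connexin 43, went from 99.6, 94.4 and 97.3 to 0.763, 1.23 and 1.09 CPM (log2 fold change -6.52 ± 0.14 SE, adjusted p = 2.45e-26). *Cd83*, a marker of activated antigen-presenting cells, went from 689.9, 708 and 676 to 16.4, 14.1 and 14.9 CPM and was lower by 45.8-fold (log2 fold change -5.52 ± 0.072 SE, adjusted p = 1.08e-31). In both genes the libraries of the 2 times were far apart. *Noct*, a circadian NADP phosphatase, *Spsb1*, a substrate adaptor of a ubiquitin ligase, *Cav1*, the main protein of caveolae, and *Olr1*, a receptor for oxidized LDL, had log2 fold changes from -6.94 to -5.87. *F13a1* (-6.47 ± 0.27) and *Ube2c* (-5.87 ± 0.24) were in the set too, and *Ube2c* shares an exon with *Tnnc2*.

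**Figure D2:**
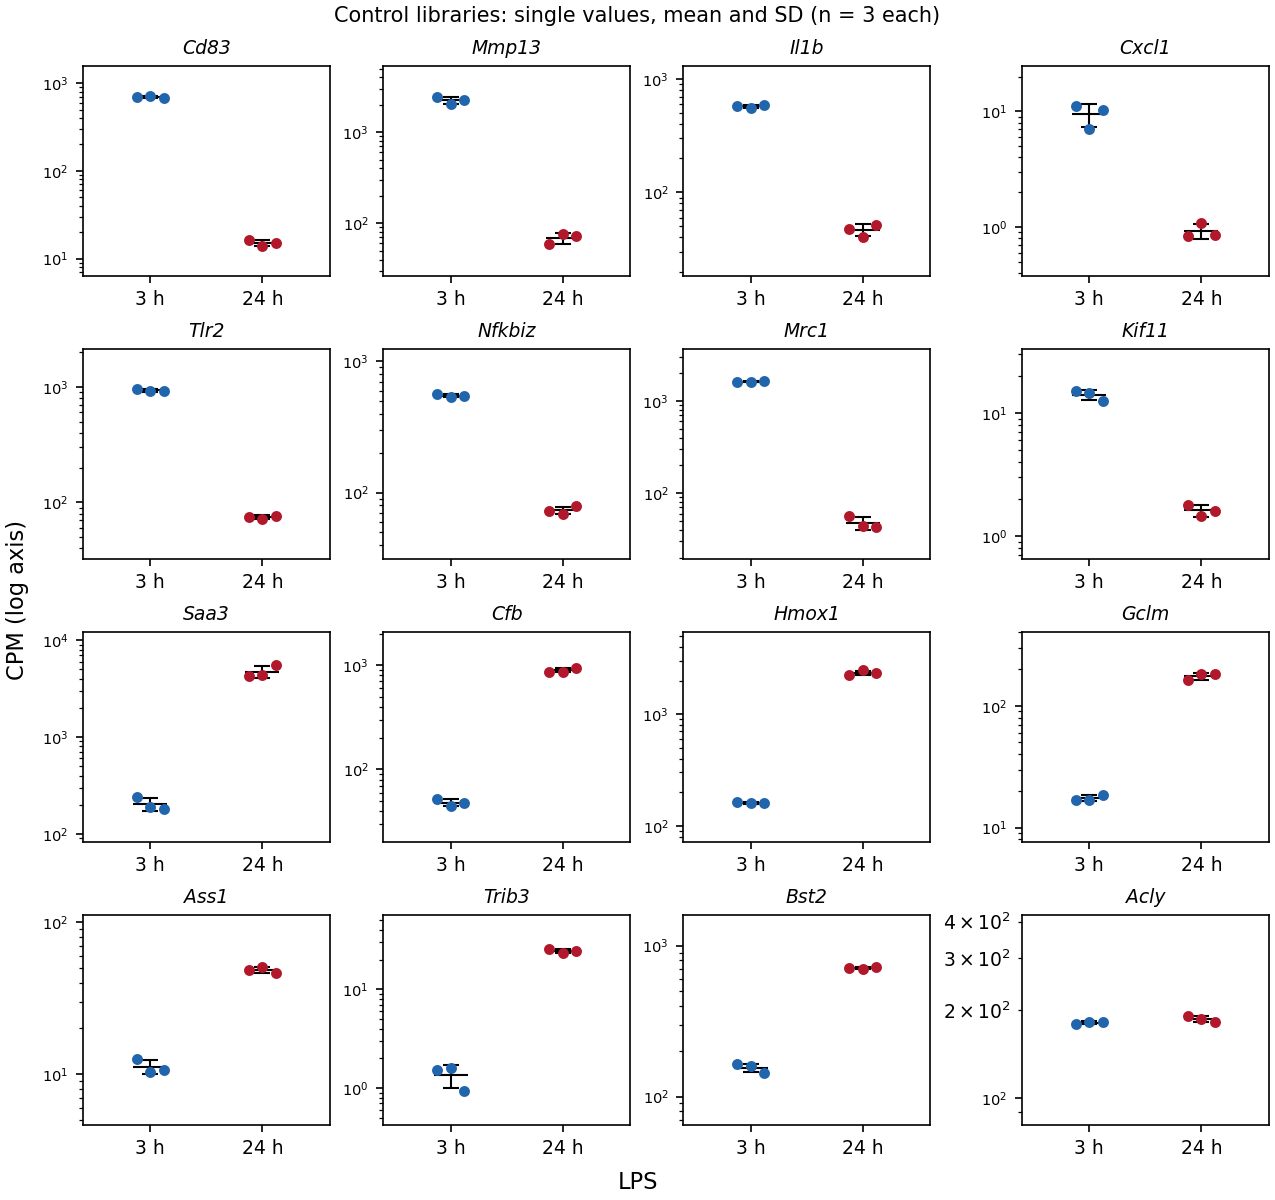
CPM (log axis, a scale of its own in each panel) of 16 genes in the 3 control libraries at 3 h (blue) and the 3 at 24 h (red), with the mean and SD drawn as bars. In each panel other than *Acly* the libraries of the 2 times lie several-fold apart, and *Acly* stands at 179 to 191 CPM throughout.

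Most transcription factors of the early response were lower at 24 h. Of 20 immediate-early transcription factors tested, 12 were lower and 3 higher, with a median log2 fold change of -1.04 against 0.032 over all genes tested. *Nr4a3*, an orphan nuclear receptor induced by many stimuli, was counted at 14.004, 11.7 and 12.9 CPM at 3 h and 0.347, 0.508 and 0.233 CPM at 24 h (log2 fold change -5.31 ± 0.22 SE, adjusted p = 1.37e-19). *Egr2*, a zinc finger factor, was at 8.74, 9.34 and 7.35 CPM at 3 h and 0.347, 0.29002 and 0.415 CPM at 24 h (log2 fold change -4.48 ± 0.28 SE, adjusted p = 4.91e-15). Both were low at 24 h in all 3 libraries. *Fosb*, an AP-1 subunit, rested on 79 counts over the 3 libraries at 3 h and 1 count at 24 h, a ratio of 146 with a 95% counting interval of 25.5 to 5856. *Junb* (-1.42 ± 0.059), *Fosl2* (-2.05 ± 0.10) and *Maff* (-1.62 ± 0.10) were lower too. *Klf4* went the other way, from 6.03, 4.71 and 5.47 to 23.9, 24.3 and 23.4 CPM (log2 fold change 2.14 ± 0.12 SE, adjusted p = 2.82e-16). *Klf2* (1.48 ± 0.20) and *Nr4a2* (0.79, adjusted p = 0.0202) were higher as well. *Nr4a2* lost its call in 4 of the alternatives followed gene by gene. *Atf3*, *Jun*, *Jund*, *Ier3* and *Myc* were not called, with values between -0.62 and 0.68.

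Most genes of the NF-kB pathway were lower at 24 h. Of the 17 list members tested, 13 were lower at 24 h, 1 was higher and 3 were not called, with a median of -1.51. NF-kB is a dimer of Rel proteins held in the cytoplasm by IkB proteins, many of which are themselves NF-kB targets. All 5 Rel subunits were lower, from *Relb* (-1.13 ± 0.065) and *Nfkb2* (-1.403 ± 0.052) to *Rel*, which was counted at 133, 123 and 129 CPM at 3 h and 22.3, 20.4 and 20.98 CPM at 24 h (log2 fold change -2.597 ± 0.076 SE, adjusted p = 1.56e-23). Among the inhibitors, *Tnfaip3*, which encodes A20, was at 2038, 1960.3 and 2021 CPM at 3 h and 339, 366 and 354 CPM at 24 h (log2 fold change -2.51 ± 0.048 SE, adjusted p = 4.60e-28). *Nfkbiz*, a nuclear member of the IkB family, was at 563, 532 and 544 CPM at 3 h and 71.9, 68.9 and 78.7 CPM at 24 h (log2 fold change -2.89 ± 0.061 SE, adjusted p = 3.65e-27). *Tnip3*, which binds A20, was at 1229, 1279 and 1220.3 CPM at 3 h and 169, 171 and 192 CPM at 24 h (log2 fold change -2.805 ± 0.062 SE, adjusted p = 4.15e-26). Subunits and inhibitors were thus lower together. *Irak3*, an inhibitor of the kinases just below MyD88, went the other way, from 51.4, 49.3 and 49.3 to 151, 142 and 147 CPM (log2 fold change 1.55 ± 0.068 SE, adjusted p = 5.54e-19), and it overlaps an exon of *Tmbim4* on the opposite strand. *Socs3*, which blocks signalling by IL-6 family receptors, was lower (-2.34 ± 0.053), and *Nfkbid*, *Tnip1* and *Cyld* were not called.

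The promoters of *Tnip3* and *Rel* are shown because both hold a match to the kappaB consensus that NF-kB binds, in capitals, within the 150 bases before the start, and both genes were lower at 24 h. The sequences are those of RefSeq on GRCm38.p6, 5′ to 3′ on the strand of the gene, at chr6:65590248-65590397 (plus strand) for *Tnip3* and chr11:23770970-23771119 (minus strand) for *Rel*, where 2 overlapping matches are marked as 1 run.
Tnip3: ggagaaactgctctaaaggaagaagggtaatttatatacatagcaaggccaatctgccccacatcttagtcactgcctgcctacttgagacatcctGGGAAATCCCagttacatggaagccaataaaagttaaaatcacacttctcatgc
Rel: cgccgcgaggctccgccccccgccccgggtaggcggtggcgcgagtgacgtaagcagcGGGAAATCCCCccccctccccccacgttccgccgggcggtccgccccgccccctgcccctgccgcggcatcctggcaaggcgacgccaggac
Searched on both strands of the 250 bases before the start, the kappaB consensus was found in 8 of the 14 list members with a promoter in the table (57.1%), in 8.69% of the 9543 genes tested that have one, and in 7.03% of all 27025 promoters. It was in 10.9% of the promoters of genes lower at 24 h, in 15.3% of those lower past 4-fold, in 9.57% of those higher and in 7.65% of those not called. A match is a description of the letters and not evidence of binding.

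Phosphatases that switch off MAP kinases and factors that degrade mRNA were divided. Of 14 tested, 4 were higher and 6 lower, with a median of -0.063 that turned to 0.22 with total counts. *Dusp2*, a nuclear phosphatase of ERK and p38, was counted at 138, 142 and 124 CPM at 3 h and 4.58, 3.55 and 3.32 CPM at 24 h (log2 fold change -5.19 ± 0.099 SE, adjusted p = 3.86e-28). *Zfp36*, which encodes tristetraprolin and speeds the decay of cytokine mRNAs, was at 878, 885 and 947 CPM at 3 h and 167, 179.8 and 158 CPM at 24 h (log2 fold change -2.43 ± 0.069 SE, adjusted p = 3.50e-20), while its relative *Zfp36l2* was at 31.8, 35.03 and 30.9 CPM at 3 h and 90.2, 83.7 and 85.4 CPM at 24 h (log2 fold change 1.405 ± 0.069 SE, adjusted p = 1.00e-17). The 2 relatives thus moved in opposite directions. *Dusp5* (-3.18 ± 0.29), *Dusp14* (-5.04 ± 0.41), *Dusp16* (-1.21 ± 0.067) and *Zc3h12a* (-0.86 ± 0.070, not with total counts) were lower, whereas *Dusp8* (3.34 ± 0.36), *Dusp4* (1.99 ± 0.11) and *Dusp6* (1.52 ± 0.19) were higher. *Dusp1*, the best known of the family in LPS responses, was not called (0.28, adjusted p = 0.0519).

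Cytokines and chemokines were mostly lower at 24 h. Of 22 cytokine genes tested, 13 were lower and 2 higher (median -0.95), and of 19 CC and CXC chemokines 12 were lower and 1 higher (median -1.43). *Il1b*, the fever-inducing cytokine processed by the inflammasome, was counted at 578, 559 and 592 CPM at 3 h and 47.5, 40.5 and 51.7 CPM at 24 h, which is 12.3-fold lower (log2 fold change -3.62 ± 0.094 SE, adjusted p = 6.82e-16). *Il6* was at 91.8, 72.6 and 83.5 CPM at 3 h and 15.1, 15.4 and 15.8 CPM at 24 h (log2 fold change -2.41 ± 0.10 SE, adjusted p = 5.06e-15). *Tnf*, an early cytokine of LPS-treated macrophages, was at 1669.6, 1571 and 1708 CPM at 3 h and 819, 864 and 845 CPM at 24 h (log2 fold change -0.97 ± 0.063 SE, adjusted p = 7.61e-13). All 3 were lower without overlap, *Tnf* by 1.96-fold, and *Tnf* lost its call with total counts. *Il1b* shares an exon with *Il1bos* on the other strand. *Il10*, which restrains macrophages, was lower too, from 25.04, 19.1 and 27.2 to 2.77, 5.003 and 4.797 CPM (log2 fold change -2.45 ± 0.19 SE, adjusted p = 2.43e-09). *Tnfsf9* (-3.72 ± 0.093), the IL-27 subunit *Il27* (-2.802 ± 0.067), *Il15* (-2.47 ± 0.054), the shared IL-12 and IL-23 subunit *Il12b* (-2.12 ± 0.21) and the macrophage growth factor *Csf1*, which went from 406, 391 and 412 to 107, 102 and 93.9 CPM, were lower. The growth factors *Vegfa*, which went from 20.03, 26.2 and 21.3 to 111, 113 and 105 CPM (log2 fold change 2.28 ± 0.083 SE, adjusted p = 3.87e-21), and *Inhba* (1.37 ± 0.12) were higher. *Ifnb1*, *Il12a*, *Il18*, *Il1rn*, *Osm*, *Csf3* and *Ebi3* were not called.

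Among chemokines, the neutrophil attractant *Cxcl1* was counted at 11.2, 7.102 and 10.3 CPM at 3 h and 0.832, 1.09 and 0.856 CPM at 24 h (log2 fold change -3.39 ± 0.23 SE, adjusted p = 1.68e-13). *Ccl4*, an attractant of monocytes and T cells, was at 1406, 1335 and 1318 CPM at 3 h and 167, 164 and 174 CPM at 24 h (log2 fold change -3.005 ± 0.054 SE, adjusted p = 5.96e-29). *Cxcl10*, which attracts T cells and is induced by interferon, was at 6487, 6218 and 6195 CPM at 3 h and 1385, 1370.0 and 1505 CPM at 24 h (log2 fold change -2.15 ± 0.047 SE, adjusted p = 7.89e-27). Each of them was lower in every library at 24 h, and *Cxcl10* shares an exon with *Art3*. *Ccl24*, *Cxcl3*, *Ccl9*, *Ccl6*, *Ccl3* and *Ccl7* had log2 fold changes from -3.24 to -1.67, and *Cxcl2* (-0.96 ± 0.15) and *Ccl2* (-0.89 ± 0.094) were lower by less and lost their calls with total counts. *Ccl5*, which attracts T cells, was the exception, with 1297, 1259 and 1225 CPM at 3 h and 3699, 3506 and 3661 CPM at 24 h (log2 fold change 1.52 ± 0.046 SE, adjusted p = 4.08e-23). *Cxcl9* (0.05, adjusted p = 0.703) and *Cxcl16* (-0.14) were not called.

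Of 21 receptors for cytokines and chemokines tested, 10 were lower and 1 was higher, with a median of -0.73. With total counts 5 were lower and the median was -0.45. *Ccr1* was counted at 197, 209 and 224 CPM at 3 h and 15.2, 18.7 and 16.2 CPM at 24 h (log2 fold change -3.66 ± 0.077 SE, adjusted p = 3.70e-27). *Il4ra*, the IL-4 and IL-13 receptor chain, was at 1239, 1254 and 1180.1 CPM at 3 h and 169, 166 and 162 CPM at 24 h (log2 fold change -2.89 ± 0.095 SE, adjusted p = 6.76e-13). Both were several-fold lower without overlap. *Ifnar1* (-1.07 ± 0.060), *Il10ra* (-0.89 ± 0.055) and *Il15ra* (-0.98 ± 0.057) were lower, the latter pair not with total counts. *Ccr7*, which guides cells to lymph nodes, was higher at low counts, from 0.0849, 0.319 and 0.427 to 1.46, 2.103 and 1.997 CPM (log2 fold change 2.72 ± 0.41 SE, adjusted p = 6.34e-07). The TNF receptors *Tnfrsf1a* (-0.73) and *Tnfrsf1b* (0.47) and the receptor chains for GM-CSF and G-CSF were not called.

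Of 15 Toll-like receptors, co-receptors and adaptors tested, 4 were higher and 4 lower (median 0.27). These are 26.7% each way, near the 20.6% and 19.7% over all genes tested, and RLE and DESeq2 gave 3 higher and 5 lower. *Tlr2*, which senses bacterial lipoproteins, was counted at 959, 910.1 and 923 CPM at 3 h and 75.1, 71.7 and 76.7 CPM at 24 h, a 12.5-fold decrease (log2 fold change -3.64 ± 0.11 SE, adjusted p = 1.10e-11). *Tlr9*, which senses bacterial DNA, was at 29.7, 26.3 and 30.8 CPM at 3 h and 142, 140.3 and 112 CPM at 24 h (log2 fold change 2.17 ± 0.085 SE, adjusted p = 2.28e-18). *Tlr4* itself was at 109, 107 and 116 CPM at 3 h and 137, 126 and 142 CPM at 24 h and was not called at 0.29. *Cd14*, which hands LPS to TLR4 and is on the list of macrophage markers, was at 1592, 1536 and 1505 CPM at 3 h and 152, 159 and 171 CPM at 24 h (log2 fold change -3.26 ± 0.055 SE, adjusted p = 1.09e-29). The LPS receptor thus stayed under the threshold for a call while its surface co-receptor was 9.59-fold lower. The RNA sensors *Tlr7* (-1.33 ± 0.054) and *Tlr8* (-1.36 ± 0.060) and the adaptor *Myd88* (-1.14 ± 0.056) were lower, and *Tlr1* (0.92 ± 0.060) and the genes of the other adaptor branch, *Ticam1* (0.76 ± 0.093) for TRIF and *Ticam2* (1.03 ± 0.095) for TRAM, were higher, with *Ticam1* losing its call with RLE and DESeq2. *Ticam2* shares an exon with *Tmed7* on the same strand, so reads of these genes cannot be told apart.

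Of 26 interferon-stimulated genes tested, 8 were higher, 6 lower and 12 not called, with a median of 0.095. These are 30.8% and 23.1%, near the 20.6% and 19.7% over all genes tested, and total counts gave 10 higher and 4 lower. *Bst2*, which encodes tetherin and holds virus particles on the membrane, was counted at 163, 159 and 143 CPM at 3 h and 716, 696 and 723 CPM at 24 h (log2 fold change 2.199 ± 0.059 SE, adjusted p = 1.92e-24). *Irf7*, the factor that amplifies interferon production, was at 426, 370.3 and 391 CPM at 3 h and 1834, 1814 and 1664 CPM at 24 h (log2 fold change 2.16 ± 0.086 SE, adjusted p = 1.84e-12). *Ifi44* was at 103, 84.6 and 98.2 CPM at 3 h and 575, 621 and 622 CPM at 24 h (log2 fold change 2.67 ± 0.12 SE, adjusted p = 6.38e-10). These genes were higher in every library at 24 h. *Isg20* (1.91 ± 0.12), *Oas3* (1.76 ± 0.12), *Zbp1* (0.79 ± 0.076) and *Isg15* (0.79 ± 0.049) were higher as well. *Ifih1*, the RNA sensor MDA5, was lower, with 1475, 1433 and 1499 CPM at 3 h and 471, 470.1 and 504 CPM at 24 h (log2 fold change -1.61 ± 0.047 SE, adjusted p = 1.23e-23). *Mx2* (-1.43 ± 0.060), *Ifit1* (-1.42 ± 0.045), *Cmpk2* (-1.09 ± 0.043), *Eif2ak2* (-0.99 ± 0.050) and *Mx1* (-0.77 ± 0.050) were also lower, the latter pair not with total counts, whereas *Ifit2* was at 8683, 8069 and 8337 CPM at 3 h and 7970.0, 8475 and 8911 CPM at 24 h and did not differ by the test (0.015, adjusted p = 0.778). Of 14 interferon-inducible GTPases, which act on vacuoles that hold pathogens, 2 were higher and 5 lower, with a median of -0.18 that turned to 0.10 with total counts. *Gbp5* (-1.28 ± 0.053), *Irgm1* (-1.16 ± 0.047) and *Irgm2* (-1.13 ± 0.049) were among the lower ones, and *Gbp8* (1.06 ± 0.095) and *Tgtp1* (1.01 ± 0.087) were higher. *Gbp4*, *Gbp8* and *Gbp9* overlap on the same strand, as do *Igtp* and *Irgm2* and *Tgtp1* and *Gm12185*, and their separate values are uncertain.

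The promoters of *Bst2* and *Oas3* are shown because each holds 2 overlapping matches to the core of the interferon-stimulated response element, GAAANNGAA, marked in capitals as 1 run. They lie at chr8:71537473-71537622 and chr5:120777660-120777809, both on the minus strand.
Bst2: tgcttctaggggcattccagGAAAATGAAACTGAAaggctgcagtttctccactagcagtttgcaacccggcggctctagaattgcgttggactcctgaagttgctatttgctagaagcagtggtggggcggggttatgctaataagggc
Oas3: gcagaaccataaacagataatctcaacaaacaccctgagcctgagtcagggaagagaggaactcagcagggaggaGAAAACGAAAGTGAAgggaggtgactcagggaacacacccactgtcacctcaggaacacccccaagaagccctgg
This core was found in 10 of the 19 interferon-stimulated genes with a promoter in the table (52.6%) and in 9 of the 9 interferon-inducible GTPases with one, against 6.35% of all genes tested with a promoter and 7.16% of all promoters. Among genes higher at 24 h it was in 6.56% and among genes lower in 7.09%.

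More genes of antigen presentation were higher than lower. Of 20 tested, 8 were higher and 2 lower, with a median of 0.47. The MHC class II genes, whose proteins present peptides to helper T cells, were higher together. *H2-Ab1* was counted at 33.7, 33.5 and 36.4 CPM at 3 h and 123, 107 and 96.6 CPM at 24 h (log2 fold change 1.65 ± 0.15 SE, adjusted p = 1.89e-06). *H2-Eb1* (1.46 ± 0.15), *H2-DMb1* (1.45 ± 0.090), *H2-Aa* (1.27 ± 0.17), the invariant chain *Cd74* (1.097 ± 0.16) and *H2-DMa* (0.81 ± 0.094) had the same direction. Among class I genes, *H2-K1* was at 1515, 1484 and 1451 CPM at 3 h and 3269, 3175 and 3156 CPM at 24 h (log2 fold change 1.11 ± 0.044 SE, adjusted p = 3.16e-20), and *H2-D1* (0.48) and *B2m* (0.69) had log2 fold changes under the threshold of 0.75. *Ciita*, the factor that turns on class II genes, was at 19.5, 24.4 and 20.6 CPM at 3 h and 16.6, 12.4 and 10.9 CPM at 24 h and was not called (-0.73). The co-stimulatory receptor *Cd40* went from 867, 855 and 816 to 147, 136 and 145 CPM (log2 fold change -2.57 ± 0.057 SE, adjusted p = 1.64e-26) and *Cd80* was also lower (-1.48 ± 0.097), whereas *Cd86* (-0.25) and *Cd274*, which encodes PD-L1, (0.21) were not called.

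**Figure D3:**
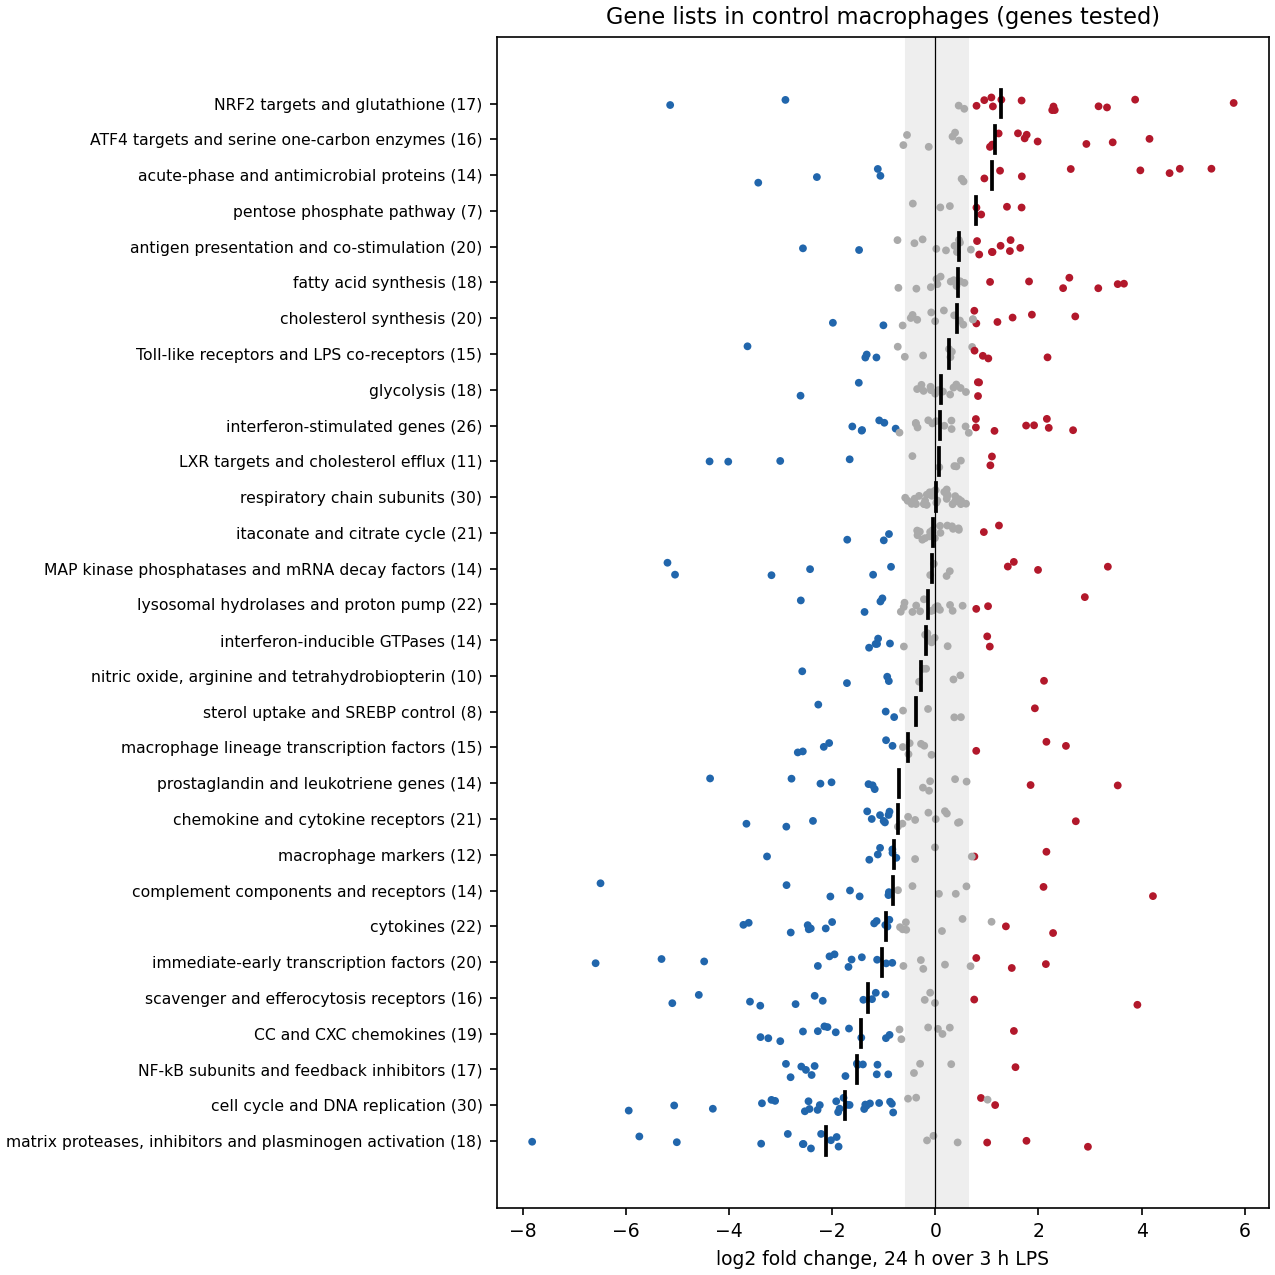
Log2 fold change of 24 h over 3 h LPS for the tested members of 30 gene lists (points, number tested in brackets), with the list median as a black bar and the interquartile range of all genes tested (-0.56 to 0.63) shaded. Red points were called higher, blue points lower and grey points were not called. The lists are ordered by median, from NRF2 targets (1.28) to matrix proteases (-2.12), and the 30 respiratory chain subunits lie between -0.58 and 0.60.

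Most acute-phase and antimicrobial proteins were higher at 24 h. Of 14 tested, 8 were higher and 4 lower, with a median of 1.103. *Saa3*, a serum amyloid A protein made by macrophages, was counted at 241, 189 and 182 CPM at 3 h and 4316, 4404 and 5517 CPM at 24 h, a 23.3-fold increase (log2 fold change 4.54 ± 0.24 SE, adjusted p = 1.19e-07). *Lcn2*, which deprives bacteria of iron by binding their siderophores, was at 13.7, 12.8 and 13.6 CPM at 3 h and 193, 212 and 224 CPM at 24 h (log2 fold change 3.97 ± 0.091 SE, adjusted p = 1.62e-23). *Slpi*, an inhibitor of leukocyte proteases, was at 0.509, 0.399 and 0.256 CPM at 3 h and 7.98, 10.4 and 12.6 CPM at 24 h (log2 fold change 4.74 ± 0.28 SE, adjusted p = 1.03e-15). All 3 were higher in every library at 24 h. *Hp*, the haemoglobin-binding protein haptoglobin, was higher (2.63 ± 0.29), and *Orm1* rested on 2 counts at 3 h and 183 at 24 h, a ratio of 49.4 with a counting interval of 13.5 to 410.7. Iron storage genes were higher: *Fth1* went from 10429.6, 10422 and 10995 to 24899, 24818 and 26281 CPM (1.25 ± 0.041) and *Ftl1* from 1098, 1142 and 1244 to 2321, 2219 and 2196 CPM (0.95 ± 0.056), both of them with near-identical copies elsewhere in the genome. *Trf*, transferrin, went the other way, from 609.7, 605 and 595 to 55.6, 54.8 and 56.997 CPM (log2 fold change -3.43 ± 0.068 SE, adjusted p = 4.44e-27). *Lyz2* (-1.11 ± 0.073), *Lyz1* (-1.06 ± 0.16) and *Ptx3* (-2.296 ± 0.57) were lower.

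More complement genes were lower than higher, with an exception of large size. Of 14 tested, 2 were higher and 7 lower (median -0.81), and total counts gave 3 higher and 5 lower. *Cfb*, factor B of the alternative pathway, was counted at 52.03, 44.7 and 47.3 CPM at 3 h and 868, 870.0 and 941 CPM at 24 h, which is 18.6-fold higher (log2 fold change 4.22 ± 0.063 SE, adjusted p = 6.63e-31). Its libraries at 24 h were all far above those at 3 h. The genes of the classical pathway's C1q were lower together, *C1qc* (-1.65 ± 0.053), *C1qb* (-1.47 ± 0.049) and *C1qa* (-0.91 ± 0.060, not with total counts). *Vsig4*, a complement receptor, was higher at low counts (2.097 ± 0.48), from 0.255, 0.0798 and 0.427 to 1.46, 0.943 and 0.985 CPM. The receptor *C5ar1* went from 686, 646 and 653 to 90.1, 86.2 and 92.2 CPM (log2 fold change -2.88 ± 0.061 SE, adjusted p = 3.70e-27), and *C3* was at 1753, 1532 and 1723 CPM at 3 h and 2520.4, 2551 and 2538 CPM at 24 h and was not called (0.604).

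Receptors that take up debris and apoptotic cells were mostly lower. Of 16 tested, 11 were lower and 2 higher, with a median of -1.31. *Mrc1*, the mannose receptor, was counted at 1588, 1614 and 1650.5 CPM at 3 h and 56.1, 43.8 and 42.9 CPM at 24 h, a 34.2-fold decrease (log2 fold change -5.097 ± 0.076 SE, adjusted p = 2.68e-26). *Cd163*, the receptor for haptoglobin and haemoglobin, was at 25.8, 25.8 and 25.7 CPM at 3 h and 1.25, 0.435 and 1.24 CPM at 24 h (log2 fold change -4.58 ± 0.16 SE, adjusted p = 2.00e-21). *Gas6*, the ligand that bridges apoptotic cells to the TAM receptors, was at 797, 772 and 789 CPM at 3 h and 65.6, 64.7 and 65.2 CPM at 24 h (log2 fold change -3.59 ± 0.054 SE, adjusted p = 6.63e-31). *Marco*, a scavenger receptor for bacteria, stood against them with 23.8, 22.98 and 21.01 CPM at 3 h and 335, 322 and 367 CPM at 24 h (log2 fold change 3.92 ± 0.15 SE, adjusted p = 8.90e-10). Of the TAM receptors, *Tyro3* was lower (-3.39 ± 0.42). *Mertk* was at 200.4, 186 and 205 CPM at 3 h and 195, 198 and 196 CPM at 24 h (-0.0067, not called). *Axl* was at the threshold (0.75) and lost its call in 5 of the alternatives followed gene by gene. *Trem2* (-2.34 ± 0.062), *Clec7a* (-2.71 ± 0.075), *Stab1* (-2.18 ± 0.082) and *Cd36* (-1.15 ± 0.18) were lower.

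Matrix proteases and the plasminogen system had the lowest median of the 30 lists plotted, -2.12, with 12 of 18 lower and 3 higher. *Mmp13*, a collagenase, was counted at 2406, 2016 and 2266 CPM at 3 h and 58.5, 76.1 and 72.5 CPM at 24 h (log2 fold change -5.01 ± 0.15 SE, adjusted p = 4.77e-10). *Plaur*, the urokinase receptor, was at 138, 148 and 144 CPM at 3 h and 15.1, 14.1 and 12.8 CPM at 24 h (log2 fold change -3.38 ± 0.074 SE, adjusted p = 8.44e-27). In both genes each library at 24 h was far under each library at 3 h. *F3*, tissue factor, rested on 187 counts at 3 h and 1 count at 24 h, a ratio of 347 with a counting interval of 61.5 to 13764. *F10*, coagulation factor X, was higher, from 26.6, 20.4 and 22.1 to 171, 187 and 179 CPM (log2 fold change 2.96 ± 0.079 SE, adjusted p = 2.11e-24), as were *Mmp2* (1.77 ± 0.31) and *Thbs1* (1.01 ± 0.061). *Mmp14*, *Mmp19* and the urokinase gene *Plau* were not called.

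Genes of prostaglandin and leukotriene synthesis differed by step. Of 14 tested, 2 were higher and 7 lower (median -0.71). *Ptgs2*, the inducible cyclooxygenase, was counted at 366, 309 and 345 CPM at 3 h and 266, 316 and 366 CPM at 24 h and did not differ by the test (-0.101, adjusted p = 0.398). *Ptgs1*, the constitutive cyclooxygenase, was at 19.8, 18.2 and 19.6 CPM at 3 h and 0.971, 0.725 and 0.985 CPM at 24 h (log2 fold change -4.37 ± 0.17 SE, adjusted p = 3.32e-20). *Ptges*, the enzyme that makes prostaglandin E2, was at 39.5, 30.2 and 35.3 CPM at 3 h and 387, 416 and 414 CPM at 24 h (log2 fold change 3.54 ± 0.17 SE, adjusted p = 1.94e-08). The synthase was thus higher and the constitutive cyclooxygenase lower, while the libraries of the inducible one overlapped. Of the prostaglandin E2 receptors, *Ptger2* was higher (1.85 ± 0.12) and *Ptger4* lower (-2.79 ± 0.079). The synthases of other products, *Tbxas1* (-1.29 ± 0.067), *Hpgds* (-1.22 ± 0.061) and *Ltc4s* (-2.01 ± 0.27), and the leukotriene genes *Alox5ap* (-1.17 ± 0.057) and *Alox5* (-2.23 ± 0.61) were lower.

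Most genes of the cell cycle were lower at 24 h. Of 30 tested, 25 were lower and 2 higher, with a median of -1.74. *Kif11*, a motor of the mitotic spindle, was counted at 14.9, 14.4 and 12.6 CPM at 3 h and 1.804, 1.45 and 1.61 CPM at 24 h (log2 fold change -3.105 ± 0.18 SE, adjusted p = 5.02e-16). *Mki67*, the proliferation marker Ki-67, was at 204, 208 and 252 CPM at 3 h and 45.1, 46.98 and 44.6 CPM at 24 h (log2 fold change -2.28 ± 0.098 SE, adjusted p = 8.17e-13). *Plk1*, a mitotic kinase, was at 8.49, 6.78 and 8.11 CPM at 3 h and 0, 0.0725 and 0.182 CPM at 24 h (log2 fold change -5.94 ± 0.32 SE, adjusted p = 1.07e-16). All 3 were lower in every library at 24 h. *Ccnb2* (-5.06 ± 0.27), *Cdc20* (-4.31 ± 0.41), *Birc5* (-3.36 ± 0.26) and *Rrm2* (-3.18 ± 0.22) were lower, and the replication helicase genes *Mcm2*, *Mcm4*, *Mcm5*, *Mcm6* and *Mcm7* were lower with log2 fold changes from -1.88 to -0.82. *Cdkn1a*, which encodes the cell cycle inhibitor p21, was lower as well, from 1798, 1751 and 1741 to 304, 328 and 330.4 CPM (log2 fold change -2.46 ± 0.063 SE, adjusted p = 1.66e-22). *E2f1* (1.16 ± 0.10) and *Ccne1* (0.88 ± 0.10), which act at the entry into S phase, were higher.

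The promoters of *Cdc20* and *Kif11* are shown because each holds the cell cycle genes homology region, CHR, TTTGAA on either strand, close to the start, in capitals. They lie at chr4:118437344-118437493 (minus strand) and chr19:37376232-37376381 (plus strand). *Cdc20* overlaps an exon of *Elovl1* on the opposite strand.
Cdc20: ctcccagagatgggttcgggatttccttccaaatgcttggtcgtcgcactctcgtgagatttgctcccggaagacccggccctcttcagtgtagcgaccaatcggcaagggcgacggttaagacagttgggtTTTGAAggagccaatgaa
Kif11: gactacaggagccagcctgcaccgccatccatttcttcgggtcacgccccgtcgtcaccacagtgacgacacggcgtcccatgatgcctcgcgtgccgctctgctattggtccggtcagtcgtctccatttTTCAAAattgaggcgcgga
CHR was found in 7 of the 25 cell cycle genes with a promoter in the table (28.0%), in 10.6% of all genes tested with a promoter and in 16.3% of all promoters. The E2F motif, GGCGGGAA, was in 1 of the 25 (4%), in 3.59% of genes tested with a promoter and in 1.91% of all promoters. CCAAT, searched after the values had been seen, was in 18 of the 25 (72.0%), in 36.8% of genes tested with a promoter and in 34.5% of all promoters.

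Lineage factors and macrophage markers changed in both directions. Of 15 lineage transcription factors tested, 6 were lower and 3 higher (median -0.52). *Irf8*, needed for monocyte and dendritic cell development, was counted at 638, 634 and 631 CPM at 3 h and 109.9, 103 and 107 CPM at 24 h (log2 fold change -2.57 ± 0.070 SE, adjusted p = 3.20e-21). *Bach1*, a repressor of haem oxygenase, was at 582, 594 and 578 CPM at 3 h and 91.4, 92.2 and 92.7 CPM at 24 h (log2 fold change -2.67 ± 0.055 SE, adjusted p = 2.40e-27). The libraries of the 2 times did not overlap in either gene. *Cebpa* was higher (2.53 ± 0.16), *Spi1*, which encodes PU.1, was lower (-0.83 ± 0.074, not with total counts), and *Irf1* (-2.16 ± 0.052) and *Cebpd* (-2.06 ± 0.11) were lower. Of the 12 macrophage markers, 7 were lower, among them *Csf1r* (-1.28 ± 0.085) and *Itgam* (-0.83 ± 0.079), and 2 were higher. With total counts 4 were lower, *Itgam* not among them, and 3 higher. One marker called higher, *Adgre1*, was at 1507, 1451 and 1425 CPM at 3 h and 2386, 2397 and 2626 CPM at 24 h (0.76). *Adgre1* lost its call in 6 of the alternatives followed gene by gene.

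The antioxidant list had the highest median of the 30 lists plotted, 1.28. NRF2 is the factor that turns on enzymes of glutathione synthesis and detoxification under oxidative or electrophilic stress. Of 17 members tested, 13 were higher and 2 lower. *Hmox1*, haem oxygenase 1, was counted at 162, 158 and 158 CPM at 3 h and 2243, 2462 and 2318 CPM at 24 h, a 14.7-fold increase (log2 fold change 3.87 ± 0.056 SE, adjusted p = 4.44e-31). *Gclm*, the modifier subunit of the enzyme that starts glutathione synthesis, was at 16.9, 16.9 and 18.6 CPM at 3 h and 162, 181 and 183 CPM at 24 h (log2 fold change 3.33 ± 0.072 SE, adjusted p = 6.80e-27). *Gsta3*, a glutathione transferase, was at 0.255, 0.319 and 0.171 CPM at 3 h and 14.4, 14.1 and 14.1 CPM at 24 h (log2 fold change 5.78 ± 0.24 SE, adjusted p = 1.46e-19). These 3 genes were higher in every library at 24 h. *Prdx1* (3.16 ± 0.081), *Srxn1* (2.32 ± 0.065), *Gclc* (2.29 ± 0.097), *Nqo1* (2.27 ± 0.27), *Gsr* (1.28 ± 0.069) and *Sqstm1* (1.12 ± 0.045) were higher. *Nfe2l2*, which encodes NRF2, was at 145, 134 and 152 CPM at 3 h and 199, 219.7 and 216 CPM at 24 h and was not called (0.56). The 2 members that were lower were the metallothioneins, which bind zinc and copper: *Mt2* went from 150.2, 169 and 154 to 5.06, 3.77 and 4.51 CPM (log2 fold change -5.14 ± 0.091 SE, adjusted p = 5.23e-29) and *Mt1* from 150.1, 152 and 142 to 22.9, 19.4 and 17.9 CPM (-2.905 ± 0.075).

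The promoters of *Gsta3* and *Mt2* are shown because they hold the same antioxidant response element core, TGACNNNGC, in capitals, and the genes changed in opposite directions. They lie at chr1:21240435-21240584 and chr8:94172468-94172617, both on the plus strand.
Gsta3: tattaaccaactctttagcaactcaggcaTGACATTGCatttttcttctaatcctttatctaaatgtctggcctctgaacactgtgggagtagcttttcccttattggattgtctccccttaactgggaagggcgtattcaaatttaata
Mt2: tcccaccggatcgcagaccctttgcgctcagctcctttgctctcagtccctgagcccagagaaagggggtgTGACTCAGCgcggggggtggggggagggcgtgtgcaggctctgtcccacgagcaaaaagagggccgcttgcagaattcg
This core, searched after the values had been seen, was in 6 of the 14 list members with a promoter in the table (42.9%), in 12.2% of genes tested with a promoter and in 10.1% of all promoters, and in 12.4% of the genes higher and 13.2% of the genes lower at 24 h.

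Most ATF4 targets were higher at 24 h. ATF4 is the transcription factor of the integrated stress response, which follows amino acid shortage or endoplasmic reticulum stress. Of 16 members tested, 10 were higher and edgeR called 0 lower (DESeq2 also 0, with 3 at a negative value and an unadjusted p under 0.05), with a median of 1.17. *Ddit3*, which encodes CHOP, was counted at 13.7, 13.1 and 13.2 CPM at 3 h and 146, 142 and 146 CPM at 24 h (log2 fold change 3.44 ± 0.11 SE, adjusted p = 1.64e-15). *Trib3*, a pseudokinase induced by ATF4 and CHOP, was at 1.53, 1.596 and 0.9396 CPM at 3 h and 25.5, 23.3 and 24.1 CPM at 24 h (log2 fold change 4.15 ± 0.18 SE, adjusted p = 2.60e-18). *Atf4* itself was at 139, 151 and 152 CPM at 3 h and 305, 307 and 308 CPM at 24 h (log2 fold change 1.06 ± 0.054 SE, adjusted p = 2.07e-17). These 3 genes were higher in every library at 24 h. *Sesn2* (2.93 ± 0.13), *Mthfd2* (1.77 ± 0.17), *Phgdh* (1.73 ± 0.25), *Asns* (1.602 ± 0.23), *Atf5* (1.103 ± 0.076) and *Chac1* (1.98 ± 0.38) were higher. *Psat1* (-0.55) and *Shmt2* (-0.62), both of serine and one-carbon metabolism, were not called and were negative.

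Genes of glycolysis were called in both directions, whereas those called in the pentose phosphate pathway were all higher. Of 18 glycolysis genes tested, 3 were higher and 2 lower (median 0.103), with 5 higher with total counts. These are 16.7% and 11.1% with TMM, against 20.6% and 19.7% over all genes tested. *Hk2*, the inducible hexokinase, was counted at 361, 377 and 348 CPM at 3 h and 60.98, 55.8 and 60.4 CPM at 24 h (log2 fold change -2.61 ± 0.063 SE, adjusted p = 1.01e-25), and *Hk3*, the hexokinase of myeloid cells, at 672, 675 and 620.1 CPM at 3 h and 1189, 1186 and 1167 CPM at 24 h (log2 fold change 0.85 ± 0.050 SE, adjusted p = 8.80e-16). The 2 hexokinases moved in opposite directions. *Pfkp* was lower (-1.48 ± 0.058), *Aldoa* (0.82 ± 0.052) and *Pkm* (0.83 ± 0.063) were higher, and *Ldha* and *Slc2a1* were not called. *Gapdh* was counted at only 3.31 ± 0.335 CPM (SD, n = 3) at 24 h, and since it has many near-identical pseudogenes its count is uncertain. The pentose phosphate pathway, which makes NADPH, had 4 of 7 members higher and 0 lower by edgeR or DESeq2, with 1 lower at an unadjusted p under 0.05 (median 0.797): *G6pdx*, its first enzyme, went from 145, 149 and 159 to 482, 489.8 and 472 CPM (log2 fold change 1.67 ± 0.052 SE, adjusted p = 8.15e-23), and *Pgd* (1.39 ± 0.051), *Taldo1* (0.89 ± 0.057) and *Rpia* (0.797 ± 0.15) were higher.

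The citrate cycle list had 2 of 21 members higher and 3 lower, with a median of -0.054 that turned to 0.23 with total counts, where 1 was lower. *Acod1*, which makes the antimicrobial metabolite itaconate from cis-aconitate, was counted at 6393, 5938 and 6331 CPM at 3 h and 8376, 8392 and 8729 CPM at 24 h and was not called at 0.45. *Suclg2* (-1.71 ± 0.17), *Idh2* (-0.999 ± 0.095) and *Fh1* (-0.898 ± 0.095) were lower and *Mdh2* (1.23 ± 0.059) and *Sdhb* (0.94 ± 0.064) higher. Of the 30 respiratory chain subunits edgeR called 0, with values between -0.58 and 0.595, although 12 were higher and 9 lower at an unadjusted p under 0.05. DESeq2 called 0 of them, total counts 3, and the median of 0.013 turned negative with the RLE and DESeq2 scalings. In arginine metabolism, where 1 of 10 genes was higher and 4 lower and the median of -0.27 turned positive with total counts (2 higher and 2 lower), *Ass1*, which recycles citrulline to arginine, was at 12.6, 10.3 and 10.8 CPM at 3 h and 48.5, 50.2 and 46.4 CPM at 24 h (log2 fold change 2.11 ± 0.088 SE, adjusted p = 1.36e-19), whereas the arginine transporter *Slc7a2* (-0.901 ± 0.061), *Odc1* (-2.58 ± 0.085), *Arg2* (-1.71 ± 0.23) and *Gch1* (-0.93 ± 0.063), the first enzyme of tetrahydrobiopterin synthesis, were lower.

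Of 18 fatty acid synthesis genes tested, 7 were higher at 24 h and 0 lower by edgeR or DESeq2, with 1 lower at an unadjusted p under 0.05 (median 0.45). *Acss2*, which makes acetyl-CoA from acetate, was counted at 4.92, 4.15 and 3.16 CPM at 3 h and 49.8, 53.6 and 51.3 CPM at 24 h (log2 fold change 3.66 ± 0.12 SE, adjusted p = 1.67e-22). *Acsl1*, a long-chain acyl-CoA synthetase, was at 214, 198 and 219 CPM at 3 h and 2406, 2415 and 2492 CPM at 24 h (log2 fold change 3.54 ± 0.056 SE, adjusted p = 2.22e-30). *Scd2*, a desaturase, was at 136, 128 and 129 CPM at 3 h and 791, 794 and 793 CPM at 24 h (log2 fold change 2.598 ± 0.17 SE, adjusted p = 6.62e-07). All 3 were several-fold higher without overlap. *Me1*, an enzyme that makes NADPH (3.16 ± 0.21), *Fads2* (1.82 ± 0.15) and *Acaca* (1.06 ± 0.12), the acetyl-CoA carboxylase, were higher, and *Fasn*, fatty acid synthase, was at 49.4, 52.3 and 53.4 CPM at 3 h and 75.1, 69.3 and 62.8 CPM at 24 h and was not called (0.41). *Acss2* overlaps exons of *Gss* on the opposite strand and *Acsl3* (2.48 ± 0.12) an exon of *Utp14b* on the same strand.

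Of 20 cholesterol synthesis enzymes, 6 were higher and 2 lower, with a median of 0.42. The counts depended on the scaling, with 10 higher and 1 lower with total counts and 5 higher with RLE or DESeq2. *Mvd*, which makes isopentenyl diphosphate, was counted at 8.402, 9.18 and 8.88 CPM at 3 h and 62.1, 56.8 and 55.3 CPM at 24 h (log2 fold change 2.71 ± 0.10 SE, adjusted p = 5.81e-21). *Lss*, lanosterol synthase, was at 11.5, 12.8 and 11.4 CPM at 3 h and 44.2, 44.8 and 42.1 CPM at 24 h (log2 fold change 1.87 ± 0.16 SE, adjusted p = 2.95e-08). *Acat2* (1.498 ± 0.14), *Dhcr7* (1.204 ± 0.12), *Pmvk* (0.79 ± 0.16) and *Mvk* (0.76 ± 0.17) were higher, *Mvk* not with RLE or DESeq2. *Fdft1*, squalene synthase, was lower, with 339, 354 and 348 CPM at 3 h and 83.7, 89.98 and 89.3 CPM at 24 h (log2 fold change -1.99 ± 0.057 SE, adjusted p = 7.65e-24), and it overlaps an exon of the abundant *Ctsb* on the opposite strand, which stood at 20477, 20486 and 20233 CPM at 3 h and 12574, 12773 and 13158 CPM at 24 h. Of 8 genes of sterol uptake and its control (median -0.38), *Mylip*, which degrades the LDL receptor, was higher (1.93 ± 0.081) and *Scap* (-2.27 ± 0.085), *Srebf2* (-0.96 ± 0.062) and *Insig2* (-0.797 ± 0.075) were lower, the latter pair not with total counts. Of 11 LXR targets and efflux genes, *Nr1h3*, which encodes LXR-alpha, (1.098 ± 0.080) and *Arl4c* (1.07 ± 0.11) were higher and 4 were lower (median 0.077). *Abca9* went from 30.04, 33.1 and 30.7 to 1.11, 1.09 and 1.84 CPM (log2 fold change -4.37 ± 0.15 SE, adjusted p = 4.79e-22), and *Cyp27a1* (-4.01 ± 0.22), *Ch25h* (-3.01 ± 0.23) and *Apoe* (-1.66 ± 0.089) were lower, while the efflux pumps *Abca1* (-0.44) and *Abcg1* (0.41) were not called.

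Of 22 lysosomal genes tested, 3 were higher and 4 lower (median -0.15, turning to 0.13 with total counts). These are 13.6% and 18.2%, not far from the 20.6% and 19.7% over all genes tested. *Tfeb*, the factor that controls lysosome genes, was counted at 3.39, 3.75 and 2.14 CPM at 3 h and 25.3, 22.8 and 21.99 CPM at 24 h (log2 fold change 2.898 ± 0.16 SE, adjusted p = 2.92e-16). *Atp6v0d2*, a subunit of the proton pump, was at 226, 238 and 248 CPM at 3 h and 40.1, 41.5 and 36.2 CPM at 24 h (log2 fold change -2.61 ± 0.073 SE, adjusted p = 3.81e-23). *Ctsz* (1.02 ± 0.044) was higher, *Hexa* (-1.37 ± 0.048) and *Ctsl* (-1.06 ± 0.067) were lower, and the abundant *Ctsd* (-0.37) was not called.

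The same comparison in AclyM-KO macrophages, which shares no library with the controls, called 4975 genes (41.8%). Of the 4800 genes called in control, 4081 were called the same way there, which is 85.0% of the control calls and 82.0% of the AclyM-KO calls, 5 were called the other way and 714 were not called. The test of the difference between the genotypes, an interaction term in the same fit, was passed by 1107 genes (9.3%), of which 542 were called in control (11.3% of the 4800). Among these 542, 208 had the larger change in AclyM-KO and 334 a smaller change or one that had turned. A gene not called in AclyM-KO was not thereby shown to differ, since 137 of the 714 passed the interaction.

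Of the 20 cholesterol synthesis enzymes 18 passed the interaction test, and of the 18 fatty acid synthesis genes 13, against 9.3% of all genes tested. Of the 22 cytokines 6 passed, of the 17 NF-kB genes 3, of the 19 chemokines 3 and of the 30 respiratory chain subunits 1. The shares of cytokines, NF-kB genes and chemokines were thus also above the 9.3% of all genes. So were those of the interferon-stimulated genes (12 of 26), the cytokine and chemokine receptors (8 of 21) and the genes of sterol uptake and its control (6 of 8). *Acat2*, an early enzyme of the mevalonate pathway, changed by 1.498 in control and -0.96 in AclyM-KO (difference -2.45, adjusted p = 3.59e-11). *Fads2* changed by 1.82 and -1.77 (difference -3.58, adjusted p = 2.27e-11). These enzymes were higher at 24 h in control and lower in AclyM-KO. For *Acat2* the means were 6.02 CPM at 3 h and 16.8 CPM at 24 h in control, and 19.8 and 10.2 CPM in AclyM-KO. Its level at 3 h was thus already higher in AclyM-KO than in control. *Il1b* changed by -3.62 in control and -3.68 in AclyM-KO, *Hmox1* by 3.87 and 3.88, and *Saa3* by 4.54 and 4.43, each with an interaction that did not pass (0.81, 0.952 and 0.877 as adjusted p). A p that misses the threshold does not show that the changes were equal. *Nfkbiz* changed by -2.89 in control and -3.31 in AclyM-KO, and *Tnip3* by -2.805 and -2.33. Both of these interactions passed (adjusted p = 0.00103 and 2.36e-04). Of the interferon-inducible GTPases, 11 of 14 passed, with *Gbp5* changing by -1.28 in control and -0.85 in AclyM-KO (adjusted p = 1.91e-04).

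**Figure D4:**
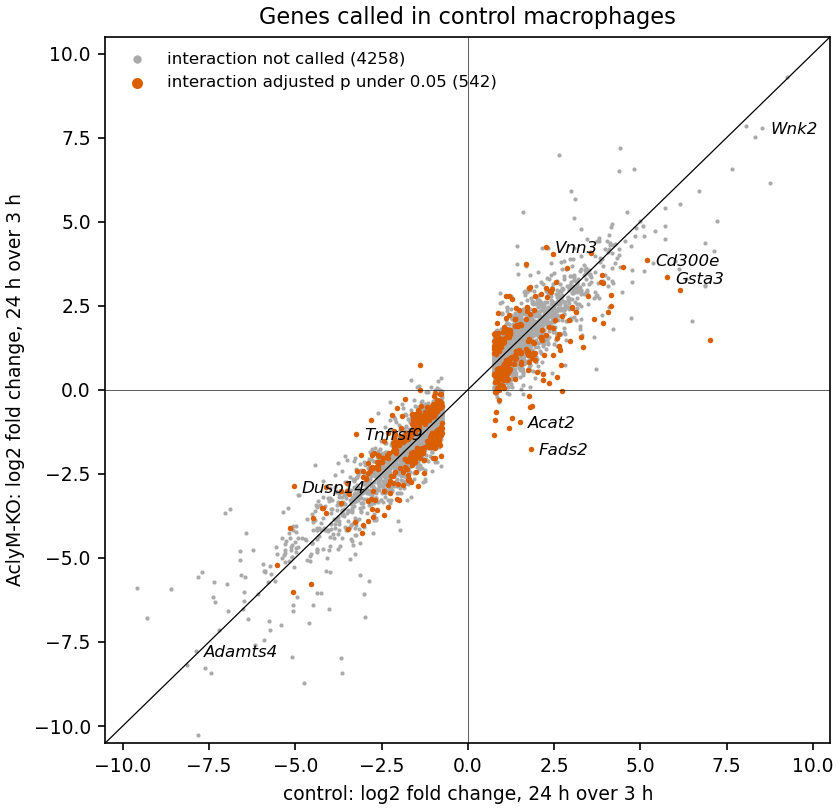
Log2 fold change of 24 h over 3 h LPS in AclyM-KO (vertical axis) against the same in control (horizontal axis) for the 4800 genes called in control, with the line of equal change. Orange points are the 542 genes with an adjusted interaction p under 0.05. Most points follow the line, and *Fads2* and *Acat2* lie where control is higher at 24 h and AclyM-KO lower.

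Over all genes called, the 3 control libraries at 3 h had 85.9 to 86.0% of their counts in called genes in those lower at 24 h, and the 3 libraries at 24 h had 45.6 to 45.9%. These shares describe the genes that defined the calls and test nothing in the 6 libraries. In the AclyM-KO libraries, which did not enter the control contrast, the shares were 84.5 to 85.3% at 3 h and 45.2 to 46.0% at 24 h. Genes higher at 24 h had a median span on the genome of 20.3 kb, those lower 29.0 kb and those not called 22.6 kb.

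**Figure D5:**
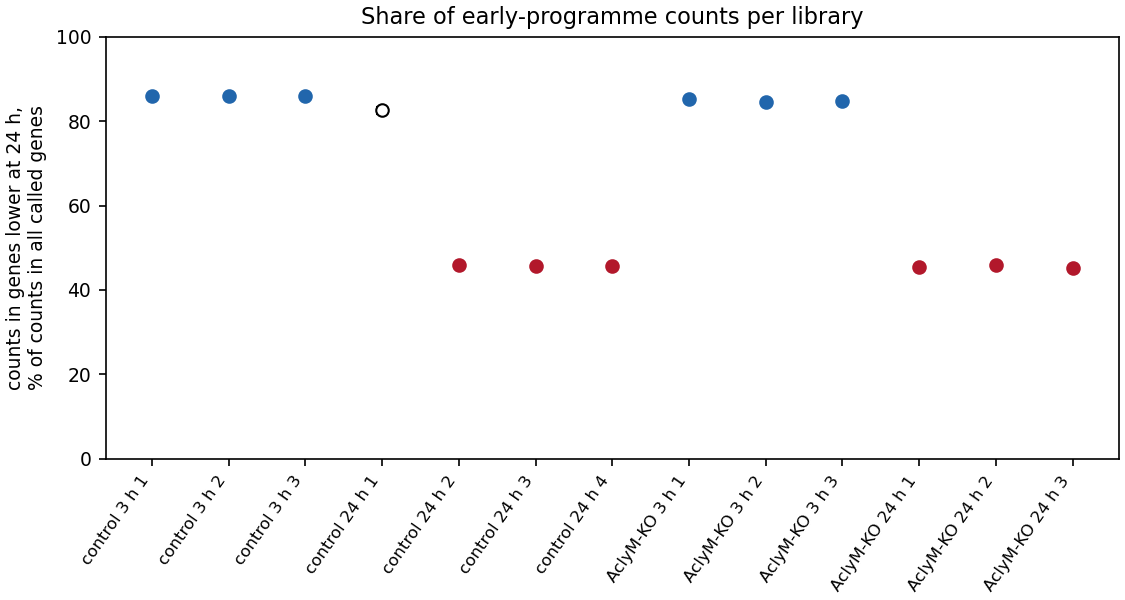
Share of the counts in called genes that lay in genes lower at 24 h (vertical axis, percent), for each of the 13 libraries, at 3 h (blue) and 24 h (red). The open circle is control 24 h replicate 1, which entered only the alternative fit with all 13 libraries and stands at 82.6%.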

How the data were processed

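Libraries were strand-specific poly(A) RNA-seq of BMDMs. The deposited values are raw counts per RefSeq transcript, which the authors made by aligning reads to mm10 with STAR and counting with HOMER, and the labels' processing notes name CASAVA 1.8.2 and STAR 2.5.2b. The strand and isoform settings of the counting are not given in the sources used here. Of 35745 transcripts, 117 without a symbol (1.129% of counts) were left out, and the transcript with the highest total was kept for each of 24445 symbols.

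Counts of 12 libraries in 4 groups were fitted with edgeR 4.0.16 in R 4.3.3 (filterByExpr, TMM, robust quasi-likelihood test, Benjamini-Hochberg adjustment), with limma 3.58.1 loaded and DESeq2 1.42.0 as an alternative. Genes were called at an adjusted p under 0.05 and a log2 fold change past 0.75, the thresholds of the study's methods, and the interaction at the adjusted p alone. The fit was tested on simulated data. Members and gene lists were chosen with earlier results of these data known.

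Named genes were the 15 of largest change in each direction with separate libraries and at least 10 CPM at the higher time (clone, Gm, Mir and Snor symbols left out), up to 3 called members of each list in each direction, other list members with their own values, the 5 largest interactions in each direction, and *Acly*. Some genes that this rule names are not reported here. Of 553 such genes tested, 108 shared an exon with another gene, 21 of them on the same strand. Motifs were searched in RefSeq promoters of GRCm38.p6. Counting intervals are exact, at 95%, and cover counting error only. Pairs of replicates differed by 2.39 to 6.74 times the chi-square that sampling allows, so none was counted as 1 library.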

Additional observations from a re-analysis of the deposited data

Results flagged for a closer look

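The change from 3 h to 24 h differed between the genotypes, by the edgeR interaction term with Benjamini-Hochberg adjustment, for 4 of the 30 genes with the largest changes. The share was 9.3% over all genes tested and 11.3% over the genes called in control, so 4 of 30 is not far from either. *Gsta3* had a difference of -2.44 on the log2 scale (AclyM-KO minus control, SE 0.43, adjusted p = 2.55e-04), *Cd300e* of -1.35 (adjusted p = 0.0413), *Fpr1* of -0.86 (adjusted p = 0.00862) and *Cd83* of 0.31 (adjusted p = 0.0436). All 4 genes changed in the same direction in both genotypes.

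Among the largest interactions of genes called in control, *Fads2* (-3.58, adjusted p = 2.27e-11) and *Acat2* (-2.45, adjusted p = 3.59e-11) turned from higher in control to lower in AclyM-KO. *Abhd15* (-2.76, adjusted p = 0.00595) was higher in control and was at 1.07 and 1.05 CPM in AclyM-KO at 3 h and 24 h. *Efcab6* (-3.16, adjusted p = 0.0477) rested on 1 count in control at 3 h, and its ratio in control was 89.6 with a counting interval of 15.9 to 3558. *Gm15326* (-5.55, adjusted p = 0.0226) had 0 counts in control at 3 h, so the fitted difference is no bound, and it was at least 12.9-fold higher at 24 h against a floor of 3 counts over the group. In the other direction stood *Dusp14* (2.17, adjusted p = 0.0423), *Zcchc3* (2.11, adjusted p = 0.0436), *Acpp* (2.06, adjusted p = 0.011), *Vnn3* (1.98, adjusted p = 0.00178) and *Tnfrsf9* (1.92, adjusted p = 0.00711). *Zcchc3* was under 1 CPM in the mean of each group.

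The library labelled control 24 h replicate 1 entered only the alternative fit with all 13 libraries. It had 82.6% of its counts in called genes in genes lower at 24 h (exact interval 81.7 to 83.3%). The other control libraries at 24 h stood at 45.6 to 45.9% and those at 3 h at 85.9 to 86.0%. It held 34467 counts in all, 1 of them in *Acly*.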

How the results depend on the processing

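With the adjusted p alone, 4562 genes were higher and 4338 lower. With total counts in place of TMM factors, 3623 were higher and 1704 lower, against 2452 and 2348. All alternatives other than the adjusted p alone kept both counts within 1.5 times. Apart from total counts, these alternatives gave 1721 to 2722 higher and 1686 to 2586 lower. Among them was edgeR's glmTreat, which tests whether the change exceeds 0.75, with 1721 higher and 1892 lower. It kept 3613 of the reported calls, fewer than the 4156 kept with total counts. A log2 fold change past 1 gave 1752 higher and 1782 lower. Leaving out each control library in turn gave 2443 to 2476 higher and 2342 to 2380 lower. No called gene was called in the opposite direction under any of the alternatives run on all genes. Lost calls were not followed gene by gene for glmTreat or for a log2 fold change past 1. The tallies of lost calls therefore leave both out. Of the 330 called genes named here or in a gene list, 36 lost their call with total counts, 10 with the replicate block, 5 with DESeq2, 4 with RLE, 3 without a filter, 2 with all 13 libraries, 1 with the stricter filter (284 tested there), 1 with all transcripts fitted and 3 to 7 when a control library was left out. Those described above that lost it with total counts were *Tnf*, *Cxcl2*, *Ccl2*, *Il10ra*, *Il15ra*, *Eif2ak2*, *Mx1*, *Zc3h12a*, *C1qa*, *Itgam*, *Spi1*, *Mcm4*, *Slc7a2*, *Gch1*, *Idh2*, *Fh1*, *Igtp*, *Srebf2* and *Insig2*. *Mvk*, *Ticam1*, *Adgre1* and *Axl* lost it with RLE and DESeq2, the latter pair also with all 13 libraries, *Mx1* without a filter, and *Adgre1*, *Nr4a2*, *Pmvk*, *Rpia* and *Spi1* with the block. Among genes described above, leaving out control 3 h replicate 1 cost the calls of *H2-DMa*, *Mvk*, *Mx1* and *Nr4a2*, control 3 h replicate 2 those of *Axl*, *Mcm4*, *Mvk*, *Pmvk*, *Rpia* and *Zbp1*, and control 3 h replicate 3 those of *Adgre1*, *Alox5*, *Nr4a2* and *Ticam1*. Leaving out control 24 h replicate 2 cost those of *H2-DMa* and *Mvk*, control 24 h replicate 3 those of *Axl*, *Mx1* and *Ticam1*, and control 24 h replicate 4 those of *Adgre1*, *Nr4a2* and *Pmvk*. The cause was not tested. Of 1014 counts of called members per list and alternative, 876 equalled the reported count, 108 differed within 1.5 times and 30 differed by more. Same-numbered libraries did not deviate together (correlations of -0.005 and 0.018). With so few such pairs this cannot show whether the numbers pair the libraries. With the replicate block 2382 genes were higher and 2339 lower. Genes with counts near 0 at one time limit the size of a fold change that can be given.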
